A study of Mus musculus with 40 samples.

Results

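The comparison follows the mouse oocyte over its whole growth phase, from the primary follicle, in which a growing oocyte is ringed by a single layer of granulosa cells, to the large antral follicle, in which the oocyte has reached full size. It takes the samples whose titles name the primary or the large antral stage, which are 16 of the 40 samples of the series: 4 of each stage on the 430A array and 4 of each on the 430B array, a pair of Affymetrix designs that carry different probe sets. Primary oocytes came from SJLB6 females aged 6 days and were pooled 90 to a sample; large antral oocytes came from SJLB6 females aged 24 days and were pooled 20 to a sample. No genotype or treatment is named for either group. The study calls its 4 samples per stage biological replicates, but the labels do not name the animals behind a pool, so the p-values measure the spread between these samples. Age, pool size and follicle stage change together, so the part of each in a difference cannot be told apart. The secondary stage (12 days, 60 oocytes) and the small antral stage (17 days, 30 oocytes) entered the same fit, 4 samples of each on each array type, and serve below to place a change along growth. For 3 of the small antral samples on 430B (replicates 2, 3 and 4) the protocol gives the age and pool size of the secondary stage, against their titles.

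During growth the oocyte, held in prophase of the first meiotic division, enlarges and builds up the messenger RNA and protein that will carry it through meiosis and the first cell divisions of the embryo. It lays down the zona pellucida, secretes growth factors that act on the granulosa cells, exchanges small molecules with them through gap junctions, and sets the DNA methylation of maternal imprints. Toward the end it becomes able to resume meiosis, and transcription then falls silent, so that later events run on stored messages that are masked, polyadenylated or destroyed.

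RNA had been amplified and hybridised per sample, and the values are array signals on a linear scale, here brought to a common trimmed mean of 500. A rise or fall is therefore a change in a message's share of the measured RNA; the amount per oocyte was not measured, and a smaller number of cells of a type in a pool and less RNA per cell cannot be told apart. Between 57.4% and 61.2% of the probe sets of each 430A array and between 65.8% and 69.4% of each 430B array reached a signal of 100. Arrays of a stage correlated on average at 0.964 to 0.981 on 430A and at 0.883 to 0.911 on 430B, and the standard error (SE) of a change in log2 signal had a median of 0.161 for 430A probe sets and 0.339 for those of 430B, so that 430B gives the less precise values. Oocyte messages were strong at both ends: the summed signal of 14 oocyte identity genes on 430A lay between 143318 and 146686 in the primary samples and between 104842 and 116399 in the large antral samples. Of the 15 such genes tested on either array 4 rose and 8 fell; 2 rose without primary replicate 1 or 3 or without large antral replicate 1 or 2.

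On 430A, 6442 of 14924 tested probe sets (43.2%) changed between the primary and the large antral stage at an adjusted p under 0.05 (limma, Benjamini-Hochberg adjustment over the array type); 3117 (20.9%) rose and 3325 (22.3%) fell. On 430B, 2847 of 17887 (15.9%) changed, of which 1385 (7.74%) rose and 1462 (8.17%) fell. A change of at least 2-fold was called for 12.7% of the probe sets of 430A (830 or 5.56% rose, 1063 or 7.12% fell) and for 8.13% of those of 430B (632 or 3.53% rose, 823 or 4.6% fell). At 4-fold or more, 110 (0.737%) rose and 196 (1.31%) fell on 430A, and 132 (0.738%) rose and 203 (1.13%) fell on 430B. Counting 1 probe set per gene, 5386 of 14925 genes (36.1%) changed, 2701 (18.1%) upward and 2685 (18.0%) downward, and the median log2 change over all genes was 0.02. These shares are the background against which the gene groups below are read. The primary and large antral groups did not overlap for 6456 probe sets of 430A (43.3%) and 3573 of 430B (20.0%). The shares per gene mix 9193 genes of 430A with 5732 genes on 430B only, where calls were fewer. A list measured mostly on 430A therefore has the 430A shares of 20.9% rising and 22.3% falling as its closer background.

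**Figure D1:**
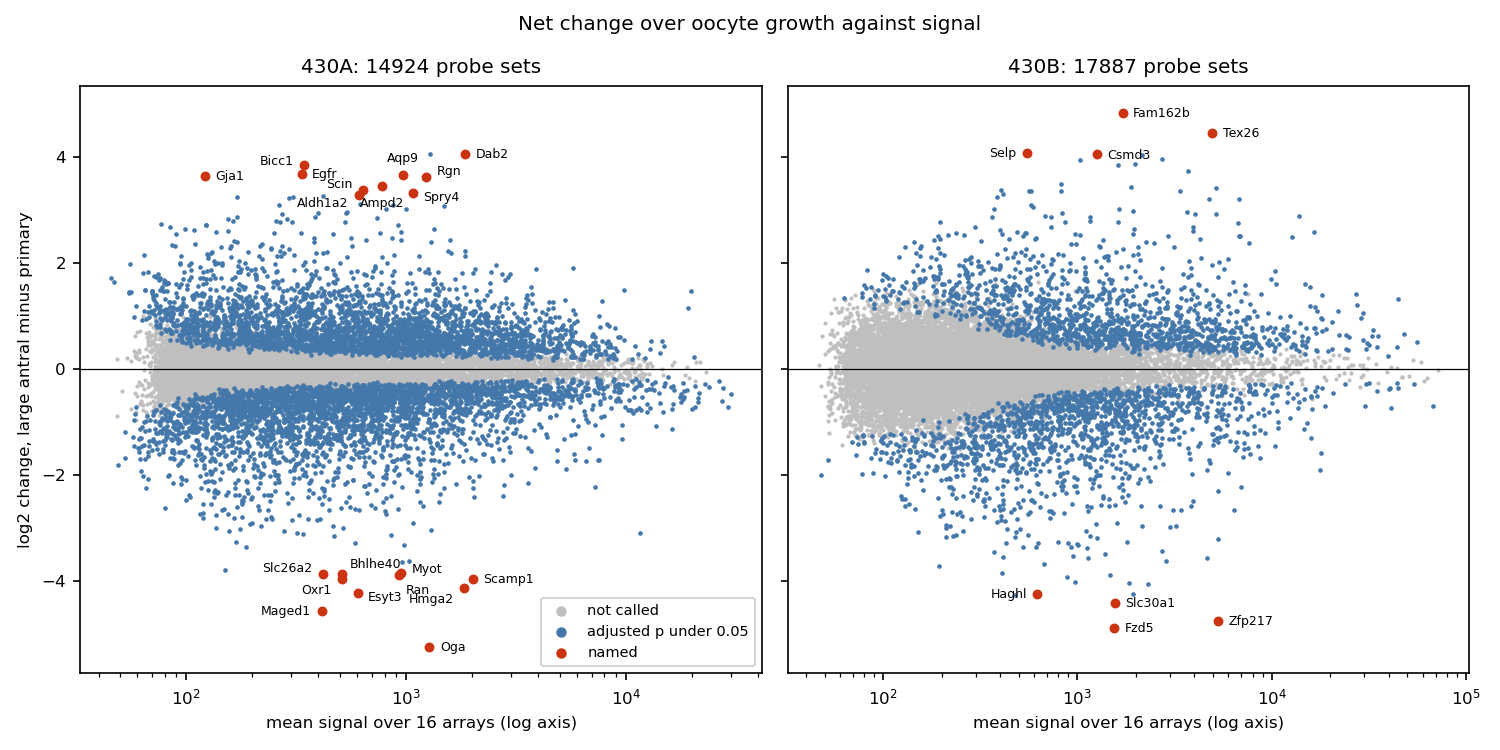
Log2 change from primary to large antral (vertical axis) against the mean signal over the 16 arrays of the fit (horizontal, log axis) for each tested probe set of 430A (left) and 430B (right). Blue points passed an adjusted p of 0.05, grey points did not, and red points are the largest rises and falls named in the text, from 4.84 for Fam162b to -5.24 for Oga.

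The 10 largest rises on 430A, 1 probe set per gene, ran from 3.29 to 4.06 on the log2 scale. The largest rises and falls were picked from called probe sets whose primary and large antral groups did not overlap. Their separation was therefore fixed by the choice. Dab2, an adaptor protein of endocytosis, had signals of 219, 140.5, 182 and 206 in the 4 primary samples and 3301, 3715, 3501 and 3879.8 in the 4 large antral samples. Every large antral sample lay far above every primary sample, a 16.7-fold rise (log2 change 4.06 ± 0.14 SE, adjusted p = 2.50e-14). Egfr, the epidermal growth factor receptor, had signals of 41.0, 36.4, 9.92 and 28.1 in primary oocytes and 731, 727, 703 and 779 in large antral oocytes, and rose 12.9-fold (log2 change 3.69 ± 0.17 SE, adjusted p = 6.55e-13). Spry4, an inhibitor of receptor tyrosine kinase signalling, rose 10.1-fold from 133, 158, 169 and 102 to 1705, 1624, 1594 and 1838, with no overlap of the groups. The primary signals of Egfr are close to the bottom of the array's range. All folds and log2 changes given here are on the scale of signal plus 32, which understates the change wherever a group's signals are under about 100, as for Egfr.

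Other large rises on 430A were those of Bicc1, an RNA-binding protein (from 12.6, 20.8, 22.5 and 9.59 to 790.2, 527, 696 and 664), and of Aqp9, a channel for water and small solutes (from 129.9, 71.4, 136 and 67.1 to 1659, 1445, 1834 and 1547). Rgn, an enzyme also known as regucalcin, went from 131, 143, 101 and 196 to 1939, 2121, 2357 and 1988, and Ampd2, which deaminates AMP, from 83.6, 138, 70.8 and 84.7 to 1496, 1211, 1190.4 and 1443. Scin, which severs actin filaments, went from 95.9, 51.9, 70.4 and 95.6 to 1005, 1222, 1150.4 and 1027, and Aldh1a2, which makes retinoic acid, from 79.7, 172, 37.4 and 38.0 to 912, 1062, 1083 and 848. By that choice the 4 large antral samples lay above all 4 primary samples in each of these genes. Their log2 changes lay between 3.29 and 3.85. On 430B the largest rises were those of Fam162b (62.3, 76.2, 144 and 49.4 to 3224, 2798, 3655 and 2898, 28.7-fold), Tex26 (424, 464, 284 and 195 to 7706, 6718, 9606 and 7614, 22.1-fold), Selp, which encodes P-selectin (4.50, 13.2, 18.3 and 18.6 to 625, 724, 865 and 759.9), and Csmd3 (148, 194, 169 and 44.2 to 2424, 2553, 2968 and 2477). Selp was higher still in small antral oocytes, at 1389 ± 407, and Csmd3 stayed near its primary level in secondary oocytes, at 211 ± 71.7.

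The largest fall on 430A was that of Oga, the enzyme that removes O-linked N-acetylglucosamine from proteins. Its signals were 3607, 3245, 2635 and 3066 in primary oocytes and 27.4, 81.6, 67.4 and 39.0 in large antral oocytes, a 37.9-fold fall (log2 change -5.24 ± 0.23 SE, adjusted p = 4.96e-13), and 2 of its 4 other probe sets also fell. Hmga2, a chromatin protein of undifferentiated and proliferating cells, fell 17.6-fold from 3862, 4454, 4754 and 3673 to 174, 199.9, 222 and 234 (log2 change -4.14 ± 0.16 SE, adjusted p = 8.73e-14). Maged1 went from 1077, 1493, 1341 and 1794 to 32.7, 51.2, 20.8 and 15.9 and had reached its low level by the small antral stage, where its mean was 16.3 ± 5.44. Scamp1, a membrane protein of secretory carriers, fell 15.6-fold from 5445, 4707, 4783 and 4725 to 251, 302, 331 and 258, and Oxr1, named for oxidation resistance, fell 15.6-fold from 1281, 1230.3, 1225 and 1314 to 38.3, 49.2, 63.7 and 53.6. For all of these, picked for groups that did not overlap, the lowest primary sample was many times the highest large antral sample.

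Bhlhe40, a transcriptional repressor, had signals of 879, 1024, 653 and 1014 in primary and 36.7, 30.7, 32.03 and 22.8 in large antral oocytes, and Slc26a2, a sulfate transporter, had 768, 743, 743 and 705 and 25.1, 23.5, 22.1 and 13.6. Both were still at their primary level in secondary oocytes, at 872 ± 83.5 and 773 ± 83.3, and dropped after that stage. Esyt3, which tethers the endoplasmic reticulum to the cell membrane, fell from 1338, 1220.0, 1660.3 and 1231 to 42.9, 24.5, 81.6 and 29.1, and Myot, an actin-binding protein, from 2399, 2887, 2644 and 3003 to 139, 171, 145 and 182. One probe set of Ran, the GTPase of nuclear transport, fell 14.9-fold from 2568, 2570.3, 2613 and 2371 to 112, 128.2, 159 and 167; of its 4 other probe sets 3 fell, the brightest by 1.61 on the log2 scale, and for the remaining probe set the log2 change was -0.12 ± 0.16 SE. On 430B the largest falls were those of Fzd5, a Wnt receptor (4448, 4164, 3708 and 3494 to 199.9, 100.4, 170.2 and 20.0, 29.6-fold), Zfp217, a zinc finger protein (13927, 12137, 11662 and 12429 to 242, 374, 895 and 412, 27.1-fold), Slc30a1, a zinc exporter (2605, 2666, 2127 and 2383 to 39.7, 113, 108 and 91.9), and Haghl (1431, 1348, 1414 and 1128 to 34.2, 32.1, 48.4 and 44.7). Slc30a1 has a weaker probe set on 430A that moved the other way, from a mean of 214.7 to 392, with a log2 change of 0.78 ± 0.19 SE and an adjusted p of 0.00225.

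**Figure D2:**
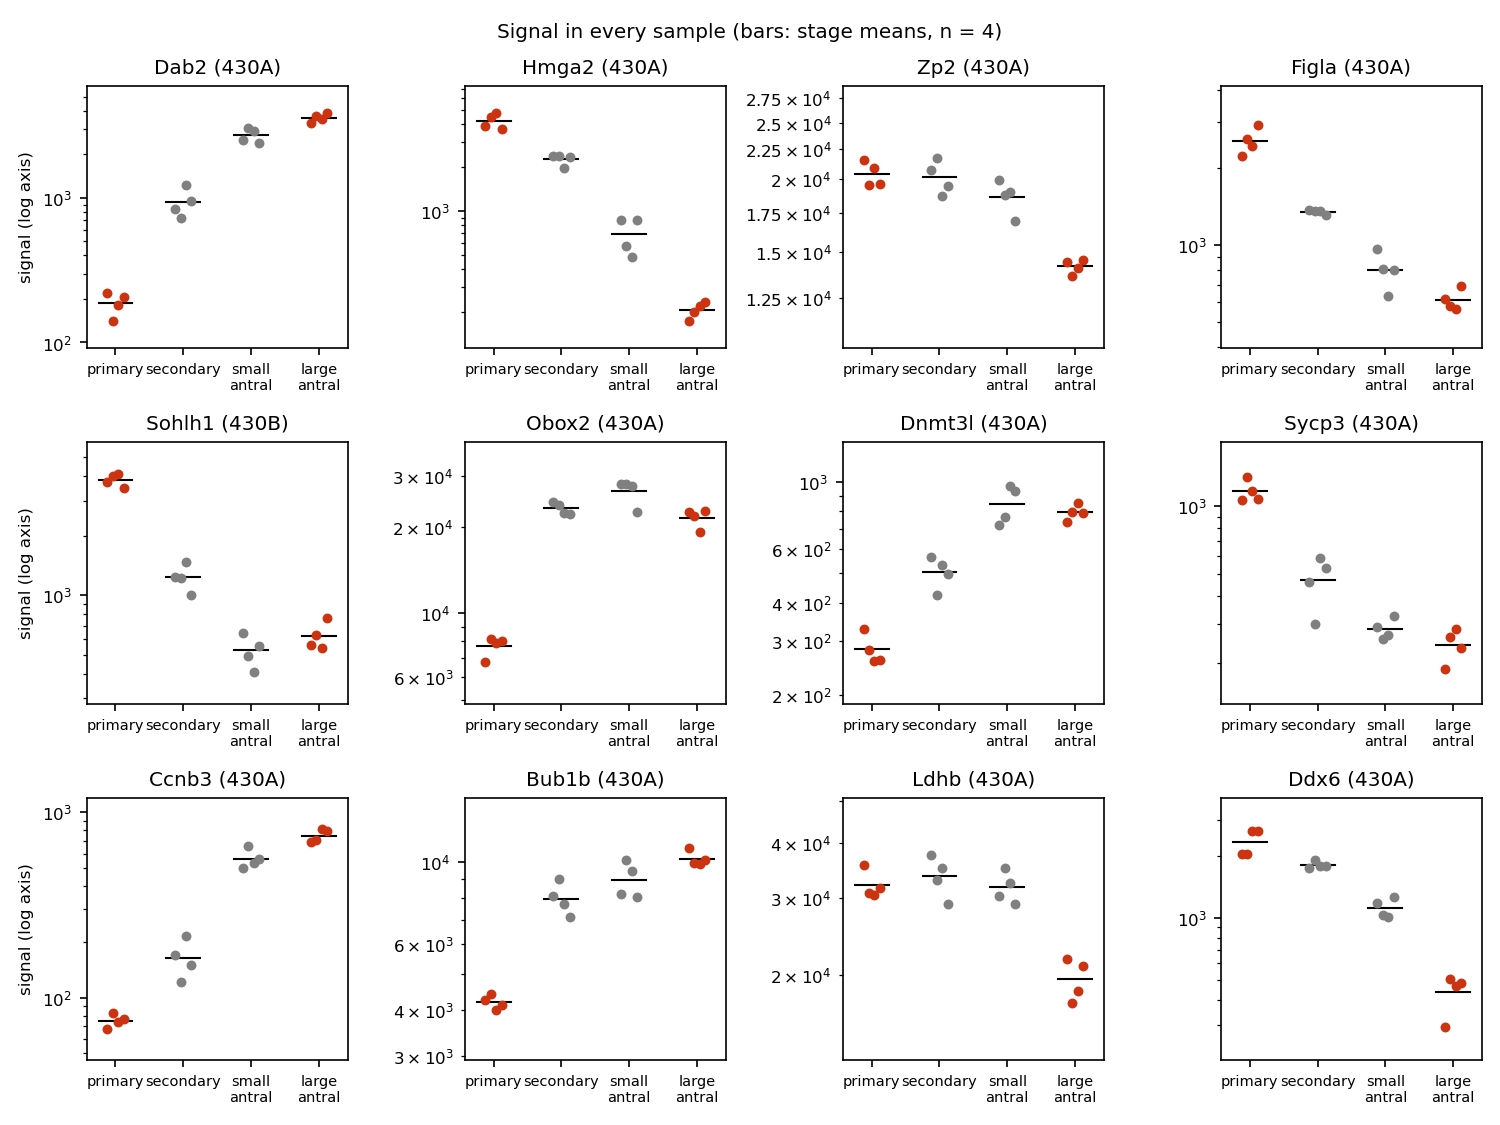
Signal of 12 genes in every sample (vertical axis, log scale) at the 4 stages of growth (horizontal), with primary and large antral samples in red, the other stages in grey, and black bars at the means of 4 samples. Dab2, Obox2, Dnmt3l, Ccnb3 and Bub1b end above their primary samples and the other 7 genes end below them, with no overlap between the red groups in any panel. Of all tested probe sets, 43.3% on 430A and 20.0% on 430B had no overlap.

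The middle stages show when along growth the large changes were made. Of the 1063 probe sets of 430A that fell at least 2-fold, 578 (54.4%) had their largest step between the secondary and small antral stages, 285 (26.8%) between primary and secondary and 200 (18.8%) between small and large antral. Of the 830 that rose at least 2-fold, 411 (49.5%) had their largest step between primary and secondary, 289 (34.8%) between secondary and small antral and 130 (15.7%) in the last step. At the secondary stage the median fallen probe set had covered 27.3% of its net log2 change and the median risen one 44.4%; at the small antral stage the medians were 75.2% and 84.0%. On 430B the medians at the secondary stage were 26.6% for falls and 49.0% for rises. The largest step lay between secondary and small antral for 418 of 823 falls and between primary and secondary for 330 of 632 rises. The 430B steps rest in part on small antral replicates 2, 3 and 4, whose protocol names the secondary stage's age and pool size. They were not repeated without these samples. Most courses ran in a single direction: 946 of the 1063 falls (89.0%) and 729 of the 830 rises (87.8%) of 430A had no step back of over 0.25 on the log2 scale. These are descriptions without a test, since the end points chose the probe sets.

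**Figure D3:**
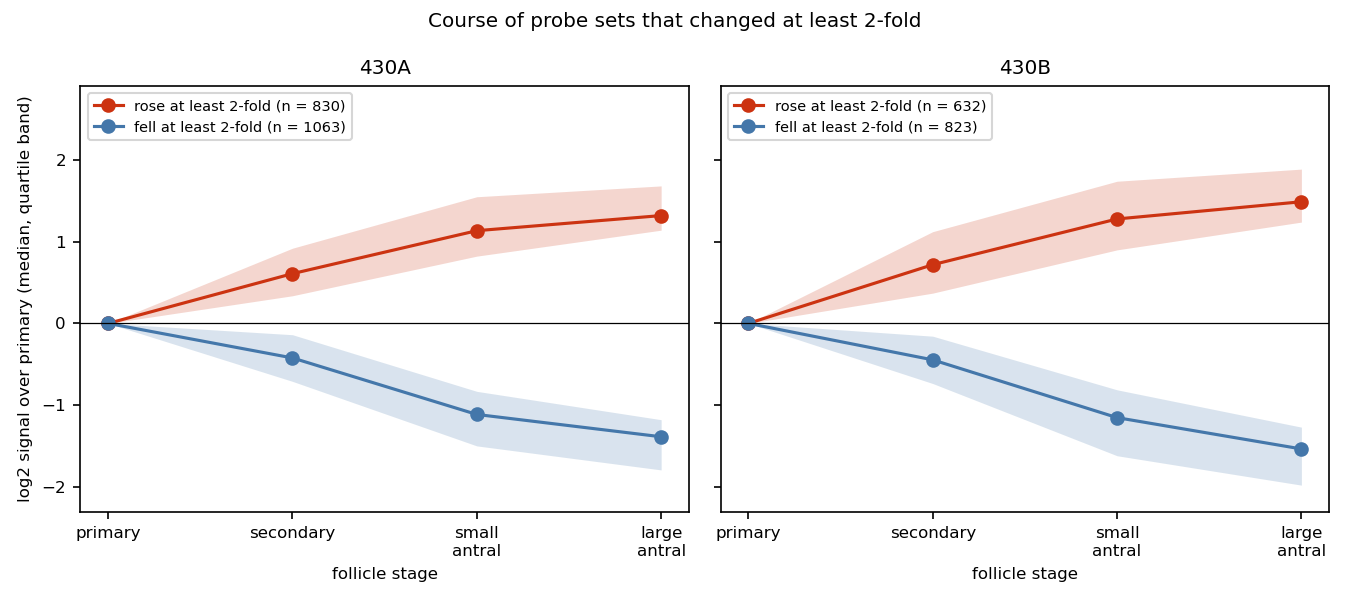
Log2 signal relative to the primary stage (vertical axis) at each stage (horizontal) for probe sets that changed at least 2-fold on 430A (left) and 430B (right); lines are medians and bands span the quartiles. On 430A the medians at the secondary stage are 0.61 for rises and -0.42 for falls, and at the large antral stage 1.32 and -1.38. On 430B the small antral point includes replicates 2, 3 and 4, whose protocol names the secondary stage's age and pool size.

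The 3 zona pellucida messages fell by under 2-fold, and those of oocyte-secreted factors changed in both directions. Of 11 zona and secreted-factor genes tested, 6 fell and 3 rose, with a median log2 change of -0.36, beside 18.0% falling and a median of 0.02 over all genes. Zp2, a structural zona glycoprotein, had signals of 21572, 19562, 20926 and 19639 in primary and 14444, 13675, 14082 and 14567 in large antral oocytes (log2 change -0.52 ± 0.06 SE, adjusted p = 7.90e-07). Zp3, the zona component first described as the sperm receptor, had 23138, 22987, 23065 and 21904 and 17633, 13919, 14386 and 16339 (log2 change -0.55 ± 0.08 SE, adjusted p = 1.40e-05), and Zp1, which cross-links the filaments, had 17915, 14988, 16378 and 15004 and 10808, 8822, 9501 and 9609.8 (log2 change -0.73 ± 0.09 SE, adjusted p = 8.35e-07). All 3 zona messages were lower in every large antral sample than in any primary sample. Groups did not overlap for 43.3% of all 430A probe sets.

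Gdf9, an oocyte growth factor of the TGF-beta family that acts on granulosa cells, had signals of 26943, 26567, 25337 and 28478 and 21492, 20069.7, 18810.1 and 23261 (log2 change -0.36 ± 0.07 SE, adjusted p = 2.96e-04). It was highest in secondary oocytes, at 32374 ± 2138, and its call depends on the scaling: after quantile normalization the log2 change was -0.04 with an adjusted p of 0.604, while Zp1, Zp2 and Zp3 kept their fall at -0.57, -0.21 and -0.23. Bmp15, its close relative, rose from 901, 947, 1269 and 1276 to 1335, 1782, 1915 and 1633 (log2 change 0.59 ± 0.15 SE, adjusted p = 0.00226) after a peak of 2529 ± 316 at the small antral stage. Oosp2 and Oosp3, oocyte-secreted proteins measured on 430B, rose 1.41-fold and 1.42-fold (for Oosp2 a log2 change of 0.50, or 0.29 after quantile normalization), and Fgf8, a fibroblast growth factor, fell 1.36-fold. Kit, the oocyte's receptor for the granulosa Kit ligand, went from 4340.1, 5071, 4396 and 4428 to 3106, 3509, 3389.8 and 2921 and was lower at the small antral stage, at 2306 ± 477.

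**Figure D4:**
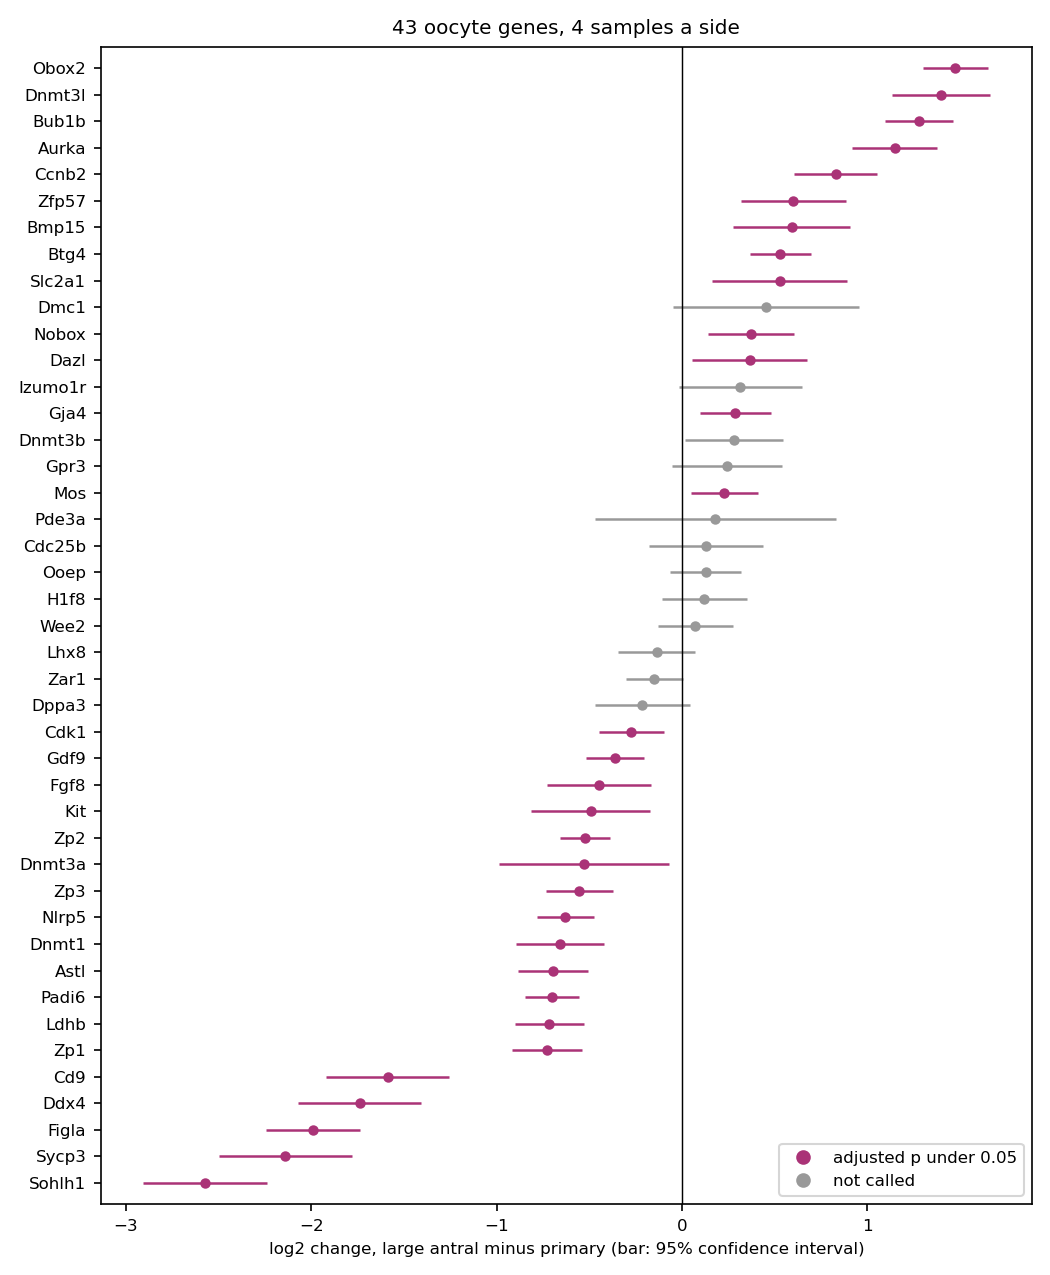
Log2 change from primary to large antral (horizontal axis) of 43 oocyte genes, with 95% confidence intervals from the limma fit. Purple points passed an adjusted p of 0.05 and grey points did not; the values run from -2.57 for Sohlh1 to 1.47 for Obox2.

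Among 18 oocyte transcription regulators 6 rose (33.3%) and 4 fell (22.2%), beside 18.1% and 18.0% of all genes. The 4 that fell were Sohlh1, Sohlh2, Figla and Taf4b, of which the first 3 are basic helix-loop-helix factors of the young follicle. Sohlh1, a basic helix-loop-helix factor needed for early follicles to grow, had signals of 3743, 4037, 4093 and 3479 in primary oocytes and 556, 629, 539 and 764 in large antral oocytes (log2 change -2.57 ± 0.15 SE, adjusted p = 7.29e-11). Figla, the factor that turns on the zona genes, had 2208, 2588, 2433 and 2937 and 618, 581, 562 and 694 (log2 change -1.99 ± 0.12 SE, adjusted p = 3.64e-11), a 3.98-fold fall against 1.44-fold for Zp2. Taf4b, a TFIID subunit of germ cells, fell 1.81-fold. For Sohlh1, Figla and Taf4b the large antral samples lay below every primary sample. Groups without overlap made up 43.3% of 430A and 20.0% of 430B probe sets.

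Nobox, a homeobox factor of early folliculogenesis, behaved otherwise: its signals were 3794, 3745, 4362 and 4056 and 5133, 4733, 5159 and 5682, a rise of 0.37 ± 0.11 SE on the log2 scale (adjusted p = 0.00756). For Lhx8, a LIM homeobox factor, the groups overlapped (4363, 3833, 3947 and 4043 against 3448, 4539.6, 3185 and 3648) and the log2 change of -0.14 was not called (adjusted p = 0.264, or 0.0344 without large antral replicate 2). Obox2, an oocyte homeobox gene of a family of near-identical copies, went from 6766, 8148, 7917 and 8043 to 22429, 21747, 19133 and 22647, a 2.78-fold rise that was already complete in secondary oocytes (23119.5 ± 1097). Obox5 of the same family rose 2.32-fold on 430B; the array may not separate members of this family. Gtf2ird1, a factor of the TFII-I type, rose 7.79-fold from 72.7, 138, 26.8 and 104 to 1009.9, 718, 842 and 735. With a primary mean of 85.4 it passed the filter through later stages, so its rise is no separate evidence.

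The promoters of 4 of the genes described here show the letters that were searched in the region before the start sites. Sohlh1 and Sycp3, which fell, and Aurka, which rose, were picked after their values were seen because their windows hold the same motif more than once, and Zp3 because its regulation by Figla through an E-box is well known. The sequences are RefSeq promoter windows of build GRCm38.p6, 250 bases before to 50 bases after the annotated start, written 5′ to 3′ on the gene's strand; capitals mark matches to a palindromic E-box, CACGTG, and to a CCAAT-box motif spelled out as CCAATC. A further searched motif, read on the opposite strand as TGATTG, overlaps the CCAAT-box motif in Sycp3 and Aurka.
Sohlh1, chr2:25847199-25847498, minus strand: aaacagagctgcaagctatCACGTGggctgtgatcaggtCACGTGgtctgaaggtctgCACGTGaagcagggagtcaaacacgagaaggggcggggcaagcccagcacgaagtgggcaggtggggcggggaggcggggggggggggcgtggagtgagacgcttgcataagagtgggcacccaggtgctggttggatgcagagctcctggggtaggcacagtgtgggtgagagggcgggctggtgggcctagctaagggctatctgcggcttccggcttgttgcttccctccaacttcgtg
Sycp3, chr10:88459337-88459636, plus strand: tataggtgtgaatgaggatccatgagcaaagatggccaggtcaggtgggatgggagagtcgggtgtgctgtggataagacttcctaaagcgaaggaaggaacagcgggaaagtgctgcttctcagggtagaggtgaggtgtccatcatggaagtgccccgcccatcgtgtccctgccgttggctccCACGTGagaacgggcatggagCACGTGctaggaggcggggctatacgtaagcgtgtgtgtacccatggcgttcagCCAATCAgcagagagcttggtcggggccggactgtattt
Zp3, chr5:135979855-135980154, plus strand: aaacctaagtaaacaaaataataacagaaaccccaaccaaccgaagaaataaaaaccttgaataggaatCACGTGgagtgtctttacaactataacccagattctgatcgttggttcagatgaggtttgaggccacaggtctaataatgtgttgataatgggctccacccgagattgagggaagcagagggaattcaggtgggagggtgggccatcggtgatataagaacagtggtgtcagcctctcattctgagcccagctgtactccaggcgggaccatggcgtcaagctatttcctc
Aurka, chr2:172370521-172370820, minus strand: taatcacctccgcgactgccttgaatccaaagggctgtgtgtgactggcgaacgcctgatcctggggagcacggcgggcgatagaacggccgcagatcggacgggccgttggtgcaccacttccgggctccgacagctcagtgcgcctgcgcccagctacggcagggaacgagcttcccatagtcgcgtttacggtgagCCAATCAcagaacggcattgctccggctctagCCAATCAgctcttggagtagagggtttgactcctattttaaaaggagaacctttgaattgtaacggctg

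In the Sohlh1 window CACGTG begins at positions 20, 40 and 59 from its 5′ end, in that of Sycp3 at 187 and 208, and in that of Zp3 at 70. CCAATC begins at positions 200 and 232 in the Aurka window and at 262 in that of Sycp3. Over all genes the windows were counted on both strands for 4 motifs, the E-box and CCAAT-box motifs above and a pair that resembles sites described for homeobox factors. Of that pair TAATTG resembles the site of Nobox, and the one described for Lhx8 is close to TGATTG. Of 326 genes that fell at least 4-fold, 260 had a promoter entry, and 11.4% of their 341 windows held CACGTG, against 9.76% of the 205 windows of 151 genes that rose at least 4-fold, 9.04% of windows of all genes tested and 7.15% of all promoters. CCAATC was held by 17.0% of windows of falling genes, 10.7% of rising genes, 19.0% of genes tested and 16.1% of all promoters. TAATTG stood in 4.40% of falling, 6.34% of rising and 5.46% of tested windows (8.0% of all promoters), and TGATTG in 14.4%, 13.7% and 13.8% (14.04% of all promoters). A match is a description of letters, and no test was made of these shares.

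The meiotic prophase list holds genes of chromosome pairing and recombination, steps that mouse oocytes complete around birth before they arrest. Of 29 genes tested, 10 fell (34.5%) and 4 rose (13.8%), beside 18.0% and 18.1% of all genes, with a median log2 change of -0.06. The number that rose was 2 without primary replicate 3 or without large antral replicate 1, 2 or 3. Sycp3, a lateral element protein of the synaptonemal complex, had signals of 1064, 1350.0, 1173 and 1083 in primary oocytes and 188, 260.1, 282 and 234 in large antral oocytes, a 4.41-fold fall (log2 change -2.14 ± 0.16 SE, adjusted p = 1.80e-09). Smc1b, the meiotic cohesin subunit, fell 4.95-fold from 1015, 937, 988 and 1140.0 to 142, 203, 170.4 and 212, and Ddx4, the germ cell RNA helicase also called vasa, fell 3.34-fold from 2086, 2263, 2068 and 2289 to 417, 754, 827 and 596. Sycp3 and Smc1b had lost most of their signal by the secondary stage, with means of 469 ± 126 and 325 ± 92.3, whereas Ddx4 still stood at 1921 ± 163.

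Mei4, needed for the DNA breaks that begin recombination, moved the other way on 430B, from 261, 464, 375 and 412 to 3851, 2298, 2697 and 4727 (log2 change 3.03 ± 0.20 SE, adjusted p = 4.36e-10). Its secondary mean of 353 ± 56.3 was near the primary level. Msh4, a recombination protein, rose 1.37-fold. Dmc1, the meiotic recombinase, was near the lower end of detection throughout (82.6, 123, 74.4 and 84.7 and 108, 166, 134 and 137) and was not called (adjusted p = 0.122). Dazl, a germ cell RNA-binding protein, had 2503, 2389.8, 2534 and 3549 and 3439, 3407, 3566 and 3572; its groups overlapped, and the adjusted p of 0.045 rose above 0.05 with any single replicate left out except primary replicate 4.

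Genes that hold meiosis in arrest or resume it were 27 in number. Of these 8 rose (29.6%) and 4 fell (14.8%), beside 18.1% and 18.0% of all genes. Of the 4 falls 3 were in the cyclic AMP arm, which holds the oocyte in arrest: Gnas, the stimulatory G protein subunit, went from 5642, 5338, 5697 and 5726 to 3070.0, 2488, 2890.2 and 2458 (log2 change -1.04 ± 0.09 SE, adjusted p = 9.04e-09), Prkacb, a catalytic subunit of protein kinase A, fell 2.28-fold, and Prkar1a, a regulatory subunit, fell 1.74-fold. The arm did not move in a single direction. Prkar2b, another regulatory subunit, rose on 430B from a mean of 1027 to 2636 (log2 change 1.36 ± 0.21 SE, adjusted p = 4.86e-05). Prkaca, another catalytic subunit, and Adcy3, an adenylyl cyclase, were not called. Gpr3, the receptor that keeps cyclic AMP high, had 877, 949, 707 and 818 and 992, 962, 901 and 1126 and was not called (adjusted p = 0.163). Pde3a, the oocyte phosphodiesterase, had weak, overlapping signals of 75.7, 122, 68.4 and 38.0 and 116, 103, 37.0 and 107 (adjusted p = 0.677), while a dimmer probe set of it rose from a mean of 17.9 to 120.1.

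The cyclin messages Ccnb3 and Ccnb2 rose, and that of the kinase Cdk1 fell slightly. Ccnb3 was under 100 in every primary sample and passed the filter through later stages, so its rise is no separate evidence. Ccnb3, a meiotic B-type cyclin, had signals of 67.8, 83.0, 73.7 and 76.4 in primary oocytes and 688, 709, 813 and 792 in large antral oocytes, a 7.29-fold rise (log2 change 2.87 ± 0.14 SE, adjusted p = 2.30e-12). Ccnb2 rose 1.78-fold from 1084, 1237, 1156 and 1209 to 2454, 1936, 1898 and 2172, and Mastl, the Greatwall kinase, rose 1.63-fold. Cdk1, the kinase that B-type cyclins activate, fell 1.21-fold from 3519, 3808, 3779.9 and 3984 to 3301, 2930.2, 3049 and 3182 (adjusted p = 0.00904, or 0.0684 when the arrays were given a common median). Mos, a kinase that keeps the ovulated egg in arrest, rose 1.17-fold (adjusted p = 0.0309), which was over 0.05 without primary replicate 1 or 3 or large antral replicate 1 or 2. Neither Wee2, the oocyte kinase that inhibits Cdk1, nor Cdc25b, the phosphatase that releases it, was called: their log2 changes were 0.07 ± 0.09 and 0.13 ± 0.14 SE.

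Of 36 genes of the spindle checkpoint, the Aurora kinases and the anaphase-promoting complex, 12 rose (33.3%) and 10 fell (27.8%). Of all genes 18.1% rose and 18.0% fell. Checkpoint kinases were among the rises. Bub1b had signals of 4237, 4420.1, 3998 and 4106 in primary and 10893, 9931, 9890.5 and 10118 in large antral oocytes (log2 change 1.28 ± 0.08 SE, adjusted p = 1.96e-10), and Ttk, also called Mps1, had 1397, 1394, 1323 and 1361 and 3645, 3947, 4051 and 3849 (log2 change 1.48 ± 0.09 SE, adjusted p = 8.80e-11). Aurka, a spindle pole kinase, rose 2.21-fold from 1515, 1088, 1276 and 1419.8 to 3227, 2940.1, 3036 and 2629.6. Messages of the destruction machinery were among the falls: Ube2c, the ubiquitin-conjugating enzyme of the complex, fell 2.51-fold from 1723, 2078, 1999 and 2009.9 to 742, 733, 743 and 810.1, and Anapc5, a subunit, fell 1.71-fold. The groups did not overlap in any of the 5, as in 43.3% of all 430A probe sets.

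Maternal-effect genes, whose products the embryo needs from the egg, changed in both directions. Of 26 tested, 10 rose (38.5%) and 9 fell (34.6%), against 18.1% and 18.0% of all genes, with a median of -0.07. Their mean signals ran from 371 to 67911, and bright probe sets were called more often than others. Of the subcortical maternal complex, a protein assembly under the egg membrane, Khdc3, Nlrp5, Padi6 and Tle6 fell by different amounts and Ooep was not called. Tle6 had a log2 change of -0.48 ± 0.08 SE (adjusted p = 8.15e-05). Khdc3, a member also known as Filia, had signals of 24579, 26466, 28444 and 26547 and 6251, 7764, 8022 and 6402, a 3.73-fold fall (log2 change -1.90 ± 0.12 SE, adjusted p = 2.75e-10). Nlrp5, also known as Mater, fell 1.55-fold from 20570.3, 21928, 21136 and 20199 to 14648, 13306, 13018 and 13216, and Padi6 fell 1.62-fold from 85968, 87010.2, 86641 and 87895 to 53712, 54335, 53767 and 52022; after quantile normalization these log2 changes were -0.35 and -0.42, still with adjusted p-values under 0.05. Ooep, another member, had 56622, 62429, 53702 and 54184 and 70245, 56646, 59622 and 61693, groups that overlapped (log2 change 0.13 ± 0.09 SE, adjusted p = 0.44, or 0.0171 after quantile normalization).

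Nlrp9c and Nlrp9a, oocyte genes of the same family as Nlrp5, rose instead. Nlrp9c went from 1824, 2115, 1532 and 1714 to 9969, 9391, 10694 and 8019 (log2 change 2.39 ± 0.12 SE, adjusted p = 3.28e-12), and Nlrp9a rose 2.93-fold; near-identical family members may share probes. Zfp36l2, which promotes the decay of messages with AU-rich elements, fell 3.6-fold, and Btg4, an adaptor for the removal of poly(A) tails in the egg, rose 1.44-fold from 11557, 10684, 9140.2 and 11503 to 15339.6, 16197, 14387 and 15819.9 (log2 change 0.53, or 0.85 after quantile normalization). Zar1, Dppa3 and H1f8, the oocyte linker histone, were not called, with log2 changes of -0.15 ± 0.07, -0.21 ± 0.12 and 0.12 ± 0.11 SE and adjusted p-values of 0.192, 0.155 and 0.391. For Zar1 the 4 large antral samples (43843, 43003, 41650.1 and 41553) still lay below the 4 primary samples (46486, 49612, 45248 and 47268).

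On the egg surface Cd9, a tetraspanin needed for the egg to fuse with sperm, fell 3-fold from 2149, 2459, 2187 and 2301 to 600.3, 852, 833 and 683 (log2 change -1.59 ± 0.15 SE, adjusted p = 4.48e-08). It had kept its level in secondary oocytes, at 2359 ± 329. Astl, the cortical granule protease ovastacin that cleaves Zp2, fell 1.62-fold from 35227, 36485, 32508 and 37492 to 22379, 21120.4, 23711 and 20249. Fetub, an inhibitor of ovastacin, went the other way, from 307, 288, 285 and 282 to 875, 841, 839.7 and 859 (log2 change 1.46 ± 0.12 SE, adjusted p = 4.16e-09). Izumo1r, the receptor for the sperm protein Izumo1, had 1469, 1281, 1514 and 1338 and 2089, 1486, 1371 and 2179.6; it was not called (adjusted p = 0.103), though it was at 0.0327 without large antral replicate 3 and at 0.0376 with the replicate number as a block. Over the whole group of 19 genes 5 rose and 5 fell (26.3% each), beside 18.1% and 18.0% of all genes.

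Among genes of DNA methylation and imprint protection, 5 of 20 rose and 5 fell; the falls numbered 3 without large antral replicate 1 or 4. Dnmt3l, the cofactor without which maternal imprints are not set, had signals of 328, 281, 259 and 260.3 in primary oocytes and 737, 793, 850.3 and 790.2 in large antral oocytes, a 2.63-fold rise (log2 change 1.40 ± 0.12 SE, adjusted p = 9.86e-09). Its signal at the small antral stage was 847 ± 122. Dnmt3a, the enzyme it works with, had 725, 742, 1414 and 1133 and 549, 739, 728 and 639.8, overlapping groups with an adjusted p of 0.049; without primary replicate 3, the highest of its samples, the log2 change was -0.35 with an adjusted p of 0.199, and the call was also lost without primary replicate 4 or any large antral replicate. Another of its probe sets rose. Dnmt1, the maintenance enzyme, fell 1.58-fold from 20524, 18774, 20043 and 18056 to 12989, 11112, 11054 and 14081 (log2 change -0.66 ± 0.11 SE, adjusted p = 4.73e-05), and both of its other probe sets fell too. Dnmt3b, with 758, 637, 749.8 and 598 and 846, 843, 779 and 874, was not called (adjusted p = 0.0702) although its groups did not overlap.

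Zfp57, which guards imprints after fertilization, rose 1.52-fold from 897, 928, 845 and 1054 to 1659, 1385, 1348 and 1328. Kdm1b, a histone demethylase that imprint setting requires, fell 2.18-fold from 19300.3, 20952, 19348 and 21629 to 8402, 9745, 12431 and 7320.2, while Nsd1, a histone methyltransferase, rose 2.79-fold, although 1 of its other probe sets fell. Of 34 genes of histone methylation and Polycomb 8 rose, among them Kdm2b (2.16-fold) and Eed (1.62-fold), and 6 fell, among them Ehmt2 (also called G9a), from 255, 272, 256 and 305 to 11.6, 20.8, 78.3 and 58.2. Histone deacetylases and acetyltransferases fell more often than they rose, 8 (30.8%) against 2 (7.69%) of 26, beside 18.0% and 18.1% of all genes. Hdac1 fell 2.33-fold from 1105, 1124, 941 and 871 to 368, 413, 409 and 470.2, and Kat6a fell 2.74-fold. The variant histones H2az1 and H2az2 parted: H2az1 fell 2.53-fold from 3716, 3483, 3886 and 3926 to 1233, 1369, 1573 and 1714, and H2az2 rose 2.25-fold from 407, 445, 447 and 526 to 1131, 981, 1090.0 and 1046. H1f2, a linker histone of somatic cells, fell 3.18-fold. Over 18 histone and histone chaperone genes 3 rose and 4 fell.

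The machinery that stores, polyadenylates and destroys messages changed in both directions, 18 rising (26.9%) and 17 falling (25.4%) of 67. Of all genes 18.1% rose and 18.0% fell. Ddx6, an RNA helicase of storage granules, had signals of 2053, 2052, 2639 and 2632 in primary oocytes and 295, 502, 468 and 482 in large antral oocytes, a 5.13-fold fall (log2 change -2.36 ± 0.14 SE, adjusted p = 3.73e-11). Patl2, an oocyte repressor of translation, fell 2.46-fold from 21821, 21055, 18935 and 20609 to 8271, 8445, 9334 and 7454, and Ythdf1, a reader of N6-methyladenosine, fell 3.66-fold from 6051, 5552, 5627 and 5590.4 to 1455, 1486, 1651 and 1558. Both had kept their level in secondary oocytes (22588 ± 1587 and 5277 ± 455). Against these falls Papolg, a poly(A) polymerase, rose 2.79-fold from 818, 661, 783 and 735 to 2058, 2343, 2197 and 1993. Pabpn1l, a poly(A)-binding protein of eggs, rose 2.3-fold, and Cnot7, a deadenylase subunit, rose 2.04-fold.

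Genes of small RNA pathways, which silence transposons in germ cells, fell in 10 (37.0%) and rose in 6 (22.2%) of 27 cases. Of all genes 18.0% fell and 18.1% rose. Piwil2, a PIWI protein, had signals of 958, 814, 886 and 889 in primary oocytes and 83.9, 99.5, 109 and 92.6 in large antral oocytes (log2 change -2.84 ± 0.13 SE, adjusted p = 5.99e-13). Tdrd9, a helicase of the same pathway, fell 2.73-fold. Piwil1, a further PIWI protein, rose from the low values of 47.3, 21.8, 106 and 59.9 to 284, 321, 265 and 339 (log2 change 1.96 ± 0.28 SE, adjusted p = 9.17e-06). The groups were fully apart in each of the 3 genes, beside 43.3% of 430A and 20.0% of 430B probe sets. Piwil1, with a primary mean of 58.8, passed the filter through later stages, so its rise is no separate evidence.

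Changes of ribosomal protein messages were small. Of 42 cytoplasmic ribosomal protein genes tested out of 78 listed, 16 fell (38.1%) and 6 rose (14.3%), none by 2-fold, with a median of -0.11. All 42 were on 430A, where 22.3% of probe sets fell and 20.9% rose. Rps3 fell 1.59-fold and Rpl4 rose 1.44-fold. Many of these genes have processed pseudogenes whose copies probes may share. Of 43 translation factor genes 13 fell and 9 rose: Eef1a1, the elongation factor that brings transfer RNA to the ribosome, had 24520.4, 22415, 23446 and 23751 and 14084, 13535, 13806 and 14357 (log2 change -0.75 ± 0.06 SE, adjusted p = 3.66e-09, or -0.50 after quantile normalization), and Eif6 rose 1.7-fold. Of 73 mitochondrial ribosomal protein genes 18 rose (24.7%) and 13 fell (17.8%), near the shares of all genes (18.1% and 18.0%) and of 430A probe sets (20.9% and 22.3%). Of 62 genes of nucleolar ribosome assembly 15 fell and 13 rose; Fbl, the nucleolar methyltransferase fibrillarin, fell 2.84-fold from 1555, 1404, 1464 and 1354 to 482, 567, 489 and 418, and Nob1, a nuclease of ribosomal RNA maturation, fell 3.39-fold.

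Of 52 nuclear pore and transport genes 20 fell (38.5%) and 14 rose (26.9%), against 18.0% and 18.1% of all genes. For 430A probe sets the shares were 22.3% and 20.9%. Xpo1, the main exporter of proteins from the nucleus, fell 2.76-fold from 4401, 4935, 5037 and 4774 to 1385, 1795, 1992 and 1739, and Kpna4, an importin alpha, fell from 225, 289, 173 and 236 to 25.1, 8.59, 18.5 and 14.9, near the bottom of the range; its log2 change ran from -1.30 to -3.29 with the constant added. Among 59 splicing genes 13 fell and 8 rose; Srsf9 fell 4.48-fold from 3559.7, 3131, 3389 and 2885 to 668, 715, 709.6 and 691, and Snrnp40 rose 3.52-fold. Of 38 proteasome genes 8 rose and 6 fell, from -1.50 for Psmd13 to 0.79 for Psme4, the activator PA200. Of 45 genes of DNA replication 12 rose (26.7%) and 9 fell (20.0%), against 18.1% and 18.0% of all genes, with a median of 0.17.

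**Figure D5:**
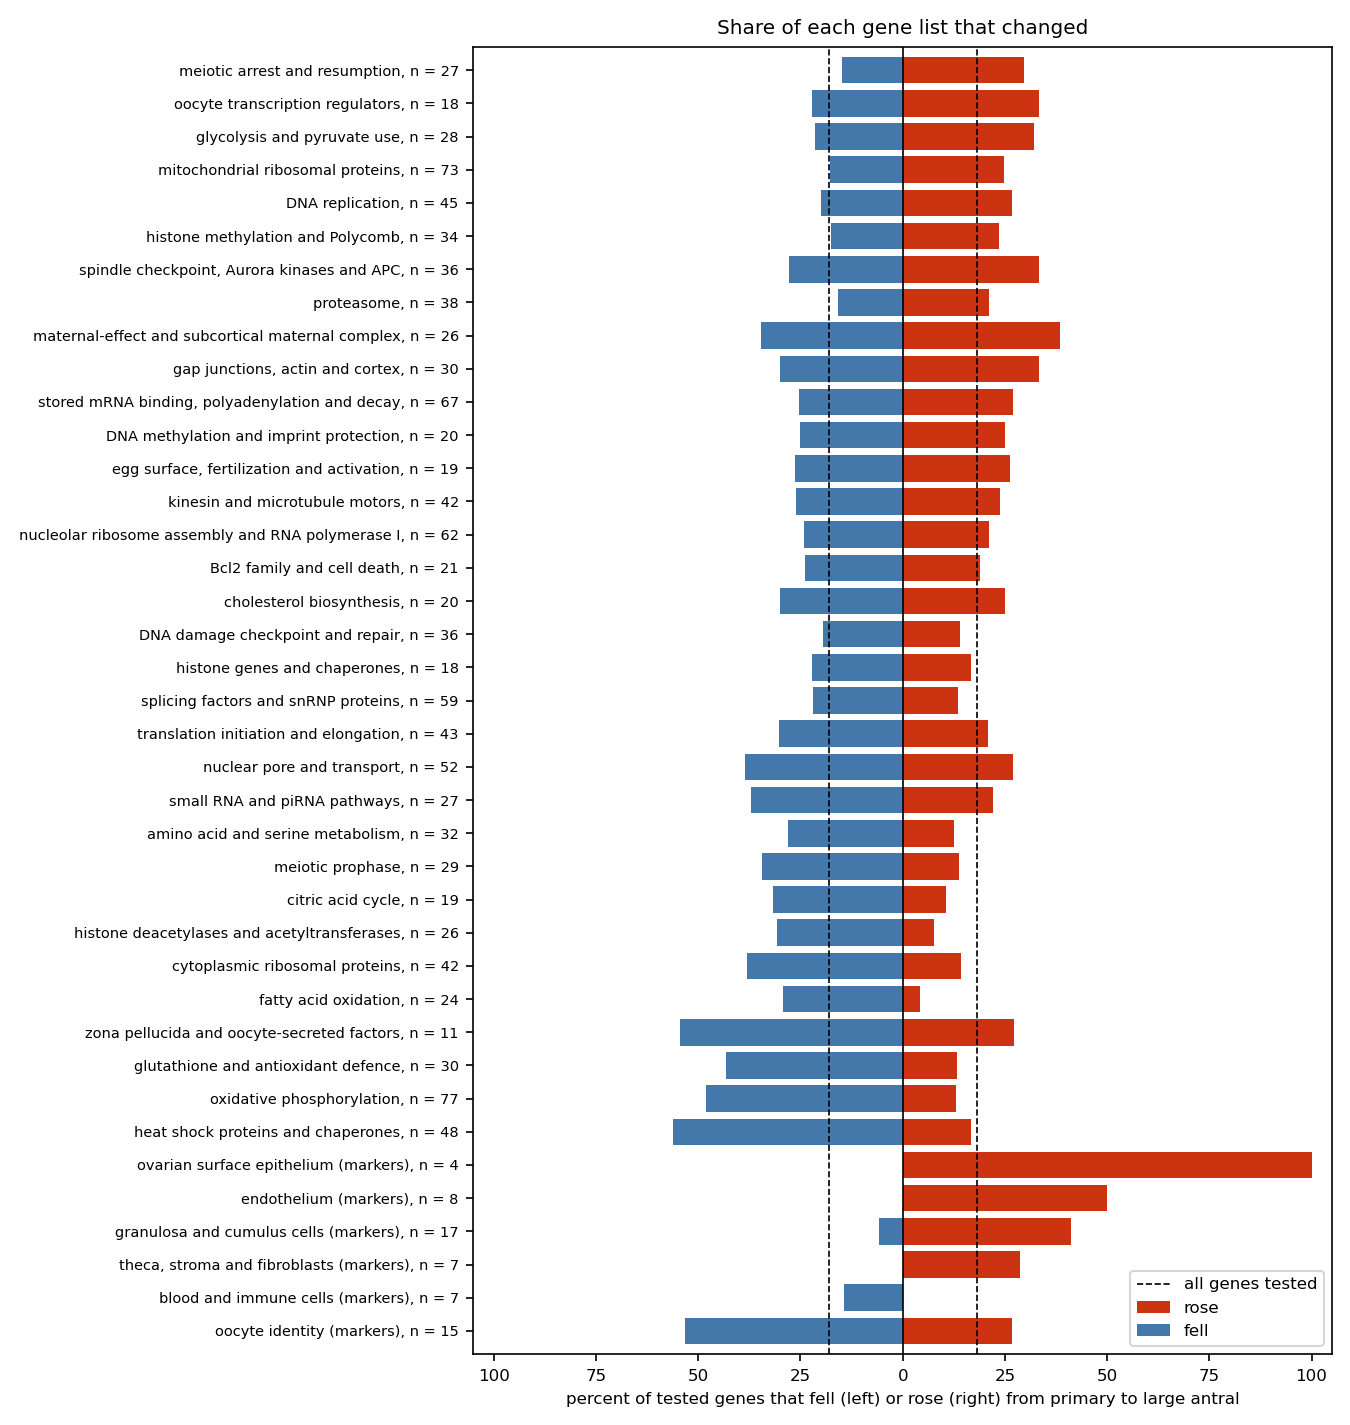
Share of the tested genes of each list that rose (red, to the right) or fell (blue, to the left) from primary to large antral at an adjusted p under 0.05, with the number tested; biology lists are above and marker lists below. Dashed lines mark the shares over all genes tested, 18.1% rising and 18.0% falling; falls reach 56.2% for heat shock proteins and chaperones and 48.1% for oxidative phosphorylation.

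Among the lists of 20 or more genes, heat shock proteins and chaperones had the largest share of falls. Of 48 genes 27 fell (56.2%) and 8 rose (16.7%), against 18.0% and 18.1% of all genes, with a median of -0.33. For 430A probe sets the shares were 22.3% and 20.9%, and bright probe sets were called more often. Hsph1, a partner of Hsp70, had signals of 14749, 11537, 11308 and 11722 in primary oocytes and 5549, 6144, 5909.9 and 5862 in large antral oocytes (log2 change -1.06 ± 0.09 SE, adjusted p = 4.08e-09). Dnajb1, a co-chaperone, fell 1.82-fold from 8611, 8523, 8780.1 and 8555 to 4808, 4729, 4653 and 4708, and Cct6a, a subunit of the cytosolic chaperonin, fell 2.47-fold. Dnajb4 stood against the group, going from 1419, 1290.1, 1307 and 1451 to 5296, 5358, 4898 and 5179.8 (log2 change 1.90 ± 0.08 SE, adjusted p = 3.82e-13).

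Oxidative phosphorylation genes fell in 37 (48.1%) and rose in 10 (13.0%) of 77 cases, against 18.0% and 18.1% of all genes, with a median of -0.27. Most were measured on 430A, where 22.3% of probe sets fell and 20.9% rose. The number that rose was 6 without large antral replicate 1. Most of the changes were under 2-fold, which only 5 genes reached. Uqcrc1, a core subunit of complex III, had 1288, 1469, 1416 and 1471 and 349, 395, 425 and 428 (log2 change -1.74 ± 0.11 SE, adjusted p = 1.80e-10), Cox6c of complex IV had 7152, 8474, 7887 and 8789 and 3539, 3079, 3129 and 3847 (log2 change -1.24 ± 0.09 SE, adjusted p = 6.20e-10), and Ndufa1 of complex I fell 1.74-fold. Antioxidant genes fell in 13 (43.3%) and rose in 4 (13.3%) of 30 cases, beside the same 18.0% and 18.1% of all genes. Sod1, the cytosolic superoxide dismutase, fell 1.44-fold from 11757, 10857, 10486 and 10612 to 8179.6, 7269.5, 7683 and 7133, Gpx1 fell 1.98-fold, and Mgst1 rose from 90.9, 86.6, 80.7 and 52.9 to 221, 213, 233 and 207. Mgst1 was under 100 in every primary sample and passed the filter through later stages, so its rise is no separate evidence. Fatty acid oxidation had 7 falls (29.2%) and 1 rise (4.17%) in 24, beside 18.0% and 18.1% of all genes. It had 2 rises without primary replicate 1 or 2 or large antral replicate 3. The falls were led by Hadh, which fell 5.89-fold from 1683, 1651, 1962 and 1805 to 223, 256, 267 and 366.

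The growing oocyte lives on pyruvate that its follicle supplies, and takes up little glucose. Within 28 genes of glycolysis and pyruvate use 9 rose (32.1%) and 6 fell (21.4%), beside 18.1% and 18.0% of all genes. The 3 lactate dehydrogenase messages parted. Ldhb, the form abundant in oocytes, had signals of 35668, 30682, 30421 and 31540.3 and 21739, 17248, 18371 and 20938 (log2 change -0.72 ± 0.09 SE, adjusted p = 8.54e-07), or -0.38 after quantile normalization, and was near its primary level at the small antral stage (31646 ± 2667). Ldhc, the germ cell form, fell 5.26-fold from 3437, 3128, 3678 and 3296 to 733, 547, 624 and 578 after a secondary mean of 4545 ± 417. Ldha rose from signals of 18.8, 11.9, 15.2 and 10.9, near the bottom of the range, to 194, 239.9, 224 and 163. Its log2 change ran from 1.22 to 3.26 with the constant added. It passed the filter only through later stages, so its rise is no separate evidence. Pdhx, a subunit of the pyruvate dehydrogenase complex, rose 3.13-fold from 2806, 3001, 2522 and 2681 to 9011, 7664, 10176 and 8038, and Slc16a1, a carrier of pyruvate and lactate, fell from 351, 395, 397 and 327 to 43.6, 85.6, 48.5 and 91.9. Slc2a1, a glucose transporter, rose 1.44-fold (adjusted p = 0.0145, or 0.0617 without primary replicate 1 and 0.0548 without large antral replicate 4). In the citric acid cycle 6 of 19 genes fell and 2 rose; Idh2, a mitochondrial isocitrate dehydrogenase, had a log2 change of -1.44 and Cs, citrate synthase, of 0.37. In amino acid and serine metabolism 9 of 32 fell and 4 rose, with Shmt1, a serine hydroxymethyltransferase, at -1.22 and the transaminase Got1 at 0.96. In cholesterol synthesis, with 5 rises and 6 falls in 20, Pmvk fell from 286, 192, 271 and 359 to 11.6, 12.2, 12.2 and 9.26. Its large antral signals are near the bottom of the range, so the size of the fall is set by the constant added before logs: the log2 change ran from -1.52 to -3.85 over the alternatives.

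Cell death and damage genes included some that guard the oocyte. Trp63, whose TAp63 form removes oocytes with damaged DNA, fell 3.35-fold from 1484, 1534, 1621 and 1396 to 374, 436, 472 and 432 (log2 change -1.75 ± 0.12 SE, adjusted p = 2.63e-10), and Mdm4, an inhibitor of p53, rose 3.74-fold from 1562, 1872, 1654 and 1913 to 6383, 7216, 6172 and 6727 (log2 change 1.90 ± 0.11 SE, adjusted p = 3.60e-11). Mcl1, a survival protein of the Bcl2 family, fell 3.04-fold from 1919.8, 2192, 1972 and 1936 to 566, 632, 592 and 773, and all 5 of its other probe sets fell as well. Bcl2l15 rose from 4.30, 3.31, 10.2 and 8.27 to 198, 226, 209 and 189, and Parp1, a sensor of DNA breaks, fell 2.76-fold. Bcl2l15 passed the filter only through later stages, so its rise is no separate evidence. Of 36 damage and repair genes 5 rose and 7 fell, and of 21 cell death genes 4 rose and 5 fell, shares close to those of all genes.

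At the oocyte surface and in its cortex 10 of 30 genes rose (33.3%) and 9 fell (30.0%), beside 18.1% and 18.0% of all genes. Gja4, connexin 37, which forms the gap junctions on the oocyte's side, had 5217, 6472, 6216 and 6046 and 8056, 7346, 6634 and 7216, a rise of 0.29 ± 0.09 SE on the log2 scale (adjusted p = 0.0107). Spire1, an actin nucleator needed for the asymmetric division of the egg, rose 4.05-fold from 1537, 1932, 2017 and 2353 to 7820.4, 7821, 8799 and 7415. Cdh1, the adhesion protein E-cadherin, rose 2.5-fold from 857, 1049.8, 908 and 956 to 2182, 2685, 2350.0 and 2404. Pfn1, the actin monomer binder profilin, fell 2.95-fold. Among 42 kinesins and other motors 10 rose and 11 fell, with Kif5c rising from 71.4, 46.3, 53.2 and 77.4 to 231, 225, 238 and 242 and Kif4 falling 1.92-fold. Kif5c passed the filter through later stages, so its rise is no separate evidence.

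Gja1, connexin 43, the gap junction protein that granulosa cells use among themselves, was one of the largest rises. Its brightest probe set had signals of 52.9, 97.2, 42.3 and 46.0 in primary oocytes and 769, 794, 836 and 861 in large antral oocytes (log2 change 3.24 ± 0.30 SE, adjusted p = 2.76e-08), and all 5 of its probe sets rose. Of 23 listed markers of granulosa and cumulus cells, 17 passed the filter on low signals; 7 rose (Inha, Fst, Hsd17b1, Gja1, Esr2, Greb1 and Slc18a2) and 1, Krt8, fell. Hsd17b1, Greb1, Gja1 and Esr2 had primary means of 13.4, 26.0, 59.6 and 60.4 and passed through later stages, so this count is a description of the markers and no support for a rise of the list. The summed signal of the 12 markers on 430A lay between 2164 and 2714 in the primary samples and between 3869.7 and 4259 in the large antral samples. That sum includes Hsd17b1, Greb1, Gja1 and Esr2, so its rise is no separate evidence. For the 5 markers on 430B the ranges overlapped, at 2648 to 3762 and 3202 to 4053. Foxl2 was by far the brightest of the 5, with means of 2111 ± 519 in primary and 1787 ± 304 in large antral samples. Of the others Fst (331 to 663) and Slc18a2 (166 to 647) rose, and Amhr2 (371 to 563) and Inhba (106 to 78.2) were not called. Fshr, the receptor of follicle-stimulating hormone that defines granulosa cells, was not called (log2 change 0.16 ± 0.16 SE), nor was Foxl2 (-0.22 ± 0.16 SE), and Amh, a product of growing follicles' granulosa cells, had signals of 9.59 to 11.9 in primary and 18.2 to 37.7 in large antral samples, under the filter of 100. Wt1, Nr0b1, Krt18 and Gatm were also under it on every array. The part of granulosa RNA in the rises of this paragraph was not tested.

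Of 9 listed markers of the ovarian surface epithelium, 4 passed the filter and rose: Upk3b, Muc16, and Cdh1 and Aldh1a2, which were described above. Upk3b and Aldh1a2 had primary means of 65.5 and 81.8, so the filter admitted them through later stages and their rise is no separate evidence. The other 5 (Krt7, Krt19, Lgals7, Msln and Krt5) stayed under 100 on every array. The summed signal of the 3 on 430A went from a range of 993 to 1346 to a range of 3289 to 3943. That sum holds Upk3b, Aldh1a2 and Cdh1, whose mean alone went from 943 to 2406 and which was described above at the oocyte surface. It is therefore no separate measure of this cell type. Of 11 listed endothelial markers 8 passed the filter. Of these 4 rose and 0 fell (2 rose without primary replicate 4 or large antral replicate 2, 3 or 4). Their sums were 926 to 1286 in primary and 1427 to 1782 in large antral samples. Pecam1, which rose, had a primary mean of 44.0. The filter admitted it through later stages, so its rise and its part in the sum are no separate evidence. Of 17 listed theca and stroma markers 7 passed. Of these 2 rose, Cyp11a1, the enzyme that begins steroid synthesis, on 430B (log2 change 1.71 ± 0.22 SE) and Hsd3b1 on 430A (1.53 ± 0.27 SE). Hsd3b1 had a primary mean of 56.7, so it too was admitted through later stages. The theca and stroma sums overlapped on 430A (5 genes), at 679.9 to 946 and 889.9 to 1116, and were apart on 430B (2 genes), at 210.1 to 673 and 963 to 1134. Of 15 listed blood and immune markers 7 passed. Of these 0 rose and 1, Csf1r, fell (0 without primary replicate 1 or 3 or any single large antral replicate). Their 430A sums overlapped, at 875 to 1412 and 987 to 1251. The part of these cell types in the changes was not tested.

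Some abundant messages stood at similar levels at both ends of growth. Among the brightest 2% of 430A probe sets that name a single gene, the 6 smallest log2 changes were those of Elp2, Klhdc3, Cdt1, Tmem14c, Rbbp7 and Vps26a, all between -0.01 and 0.02. Rbbp7, a histone-binding protein of chromatin complexes, had signals of 9846, 11191, 10028 and 9063 in primary and 10914, 10230.5, 9935 and 9352 in large antral oocytes, and Cdt1, a licensing factor of DNA replication, had 6736, 7492, 7145 and 6972 and 7213, 7002, 6341 and 7638. The groups overlapped in all 6. In mid-growth Elp2 was higher by 0.29 on the log2 scale (limma, adjusted p = 0.00217) and Rbbp7 by 0.15 (adjusted p = 0.0446); the other 4 were not called there. The 95% confidence interval was -0.15 to 0.17 for Rbbp7 and -0.19 to 0.17 for Cdt1. For Elp2 it was -0.18 to 0.19, but after quantile normalization its log2 change was 0.27 with an adjusted p of 0.00183. Among the brightest 299 probe sets of 430A as a group, 58 rose and 117 fell, with a median of -0.10; among the brightest 358 of 430B, 129 rose and 79 fell, with a median of 0.11.

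A comparison of the ends misses messages that rise and return. The mean of the secondary and small antral stages differed from the mean of the ends for 3039 probe sets of 430A (20.4%), of which 1667 (11.2%) were higher and 1372 (9.19%) lower in mid-growth, and for 831 of 430B (4.65%), 554 (3.1%) higher and 277 (1.55%) lower. Per gene, 1473 (9.87%) were higher and 941 (6.3%) lower. On 430A, Gm9222 stood out among those with a small net change: its signals were 941, 1100.1, 1076 and 1106 in primary oocytes and 969, 885, 750.2 and 857 in large antral oocytes, with means of 3029 ± 132 at the secondary and 1632 ± 203 at the small antral stage. Its mid-growth difference was 1.19 ± 0.07 SE on the log2 scale (limma, adjusted p = 2.93e-09), and its net change a fall of -0.28 (adjusted p = 0.0333) with overlapping groups. The other 9 with the strongest mid-growth differences and a net change under 0.5 were dimmer or more variable: Arhgap24, Apoe, Axin1 and Plod3 were higher in mid-growth, and Ap2b1, Ctdspl, Sec61a1, Omp and Nckipsd were lower. Apoe, a carrier of lipids, for example, had stage means of 37.4 ± 34.6, 203 ± 49.8, 128.5 ± 81.5 and 64.9 ± 53.7 along growth, and Ap2b1, a subunit of the clathrin adaptor, had 364 ± 39.9, 175 ± 134, 189.6 ± 175 and 432 ± 55.1. On 430B the mid-growth counts rest in part on 3 small antral samples whose protocol names the age and pool size of the secondary stage; without them 677 were called, 50.1% of them higher in mid-growth against 66.7% with them.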

How the data were processed

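Mouse oocyte RNA was measured on Affymetrix 430A and 430B arrays, 4 arrays per stage and type. The deposited values are linear signal intensities made by the authors with MAS5, per the submitters' processing notes; its version, the annotation and a genome build are not given in the sources used here, and detection calls were not used here. The deposited arrays already share a trimmed mean (151.1 to 151.4 on 430A, 144.4 to 145.3 on 430B), so changes are relative to the rest of the RNA on an array. Without the control probe sets, all arrays were brought to 500 by their 2% trimmed mean; log2 was taken of the signal plus 32, which understates changes of dim probe sets. Probe sets reaching 100 on at least 4 of 16 arrays were tested.

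Each array type had its own fit, made by limma 3.58.1 under R 4.3.3 (lmFit, eBayes with a mean-variance trend, 12 residual degrees of freedom) over the primary, secondary, small antral and large antral arrays; adjusted p is Benjamini-Hochberg over all tested probe sets of a type, and a call is an adjusted p under 0.05. The number of arrays limits the precision. The mid-growth contrast sets the mean of the middle stages against the mean of the ends. The fit was also run on simulated data. In the lists and the oocyte genes, a gene is represented by its brightest tested probe set with a single symbol, 430A before 430B, and among the largest changes by its most changed probe set; a signal is not compared between genes.

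The comparison, gene lists and named genes were chosen with earlier results of these data known. Genes were named by rule: the 10 largest rises and falls of 430A and 4 of 430B without overlap of the groups, 43 oocyte genes, up to 3 members each way per list by adjusted p, 6 steady bright genes, and 5 mid-growth differences each way. Marker genes and members named for the citric acid cycle, amino acid metabolism and proteasome were chosen after their values were seen. Alternatives were other scalings, offsets, filters, sample sets and variance models, array weights, a replicate block, and leaving out each replicate. Some genes are not reported here.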

Additional observations from a re-analysis of the deposited data

Results flagged for a closer look

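In 17 of 330 groups of 4 samples (5.15%) 1 sample stood apart from the other 3 by more of the range than Dixon's 95% critical value, and chance gives about 1 in 20. Scamp1 had a signal of 5445 in primary replicate 1, against 4707 to 4783 in the other 3. In primary replicate 4 the signal of Zp3 was 21904, with the other 3 between 22987 and 23138. For Kit, primary replicate 2 stood at 5071 and the other 3 at 4340.1 to 4428. Obox2 had a signal of 6766 in primary replicate 1, against 7917 to 8148 in the other 3. In large antral replicate 1 the signal of Dppa3 was 10454, with the other 3 between 9039 and 9116. For Dazl, primary replicate 4 stood at 3549 and the other 3 at 2389.8 to 2534. Pde3a had a signal of 37.0 in large antral replicate 3, against 103 to 116 in the other 3. In primary replicate 3 the signal of Prkar1a was 872, with the other 3 between 959.6 and 972. For Ube2c, large antral replicate 4 stood at 810.1 and the other 3 at 733 to 743. Kat6a had a signal of 882 in primary replicate 3, against 1003 to 1022 in the other 3. In primary replicate 1 the signal of Ythdf1 was 6051, with the other 3 between 5552 and 5627. For Ddx6, large antral replicate 1 stood at 295 and the other 3 at 468 to 502. Gpx1 had a signal of 221 in large antral replicate 3, against 179.5 to 183 in the other 3. In primary replicate 1 the signal of Hsph1 was 14749, with the other 3 between 11308 and 11722. For Arhgap24, primary replicate 1 stood at 12.6 and the other 3 at 82.6 to 93.3. Apoe had a signal of 89.2 in primary replicate 1, against 18.5 to 21.5 in the other 3. In primary replicate 1 the signal of Gm9222 was 941, with the other 3 between 1076 and 1106. The flags were not spread evenly, since Scamp1, Obox2, Ythdf1, Hsph1, Arhgap24, Apoe and Gm9222 were all flagged in primary replicate 1. On 430A that replicate had the lowest mean correlation with its stage (0.968) and the lowest array weight (0.70) of the primary arrays. The reason was not tested.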

How the results depend on the processing

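Net changes were stable in number: 5784 to 7375 probe sets of 430A and 2523 to 3042 of 430B were called under the alternatives, and 5820 to 6039 and 2537 to 2606 without 1 replicate. Mid-growth calls on 430A numbered 2666 to 3225, and 2601 to 2798 without 1 replicate. Those on 430B numbered 685 to 782 without 1 replicate, 537 with arrays scaled to the same median (76.5% of them higher in mid-growth) and 346 without the mean-variance trend (76.6%), against 831 (66.7%); the cause was not tested. Of 165 genes checked, 146 kept their direction and side of the threshold under every alternative run and 0 called changes reversed. Many of these genes were named for large changes or small adjusted p-values in the same data, so their stability was in part set by the choice. A constant 4 times larger added before log2 lowered the count of 2-fold calls on 430A from 1893 to 1070 and shrank 23 of these genes' changes by over 1.5 times. Counts of list members stayed within 1.5 times in 1515 of 1552 cases. With the replicate number as a block, 6427 probe sets of 430A and 2816 of 430B were called, and 3078 and 818 in mid-growth. Deviations of primary and large antral samples with the same number correlated between -0.06 and 0.05 over 8 pairs, so the numbers are not taken to pair samples. Signal near background limits what can be said of the size of changes in dim genes.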

Other observations

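Probe sets of a gene did not always move together. Of 3048 genes with several tested probe sets on 430A, 149 had calls in both directions. For Gsdme the log2 changes were 2.11 and -1.38, for Eif4ebp1 0.84 and -2.64, for Mob4 0.45 and -2.97, for Sfpq 1.78 and -1.57, and for Lin7c 2.15 and -1.05. Mob4 illustrates the size of such a split: 1 probe set went from a mean of 2242 to 3087 and the other from 938 to 90.7.

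Of 2562 genes tested on both array types, 321 were called on both, and 263 of these (81.9%) in the same direction. Where the 430A change was at least 2-fold, 114 of 125 had the same direction. These are counts without a test.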
